A study of Mus musculus with 6 samples.

Results

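The 40 genes described here were grouped under the citric acid cycle and fatty acid oxidation, with genes of fatty acid uptake and mitochondrial uncoupling among them. They were listed by symbol, with earlier results of these data known, and all 40 were among the 24411 symbols counted. The list put them into 5 classes, namely 14 cycle enzymes, 4 genes of fatty acid uptake and activation, 4 of the carnitine shuttle, 16 of beta oxidation and 2 of mitochondrial uncoupling. The cells were wild-type C2C12, an immortalised mouse myoblast line, analysed as differentiated myotubes in culture (1 label field calls the cells myoblasts, the titles call them myotubes). One group of 3 libraries came from myotubes given the solvent DMSO for 72 h, and the other 3 came from myotubes given 10 µM Sardomozide for 72 h. Sardomozide is an inhibitor of the Amd1 gene product, S-adenosylmethionine decarboxylase, which supplies the aminopropyl groups of spermidine and spermine. All libraries come from 1 cell line, and nothing in the labels says that the libraries of a group are separate cultures, so the p-values measure only how these libraries vary, and that variation may be technical.

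The citric acid cycle oxidises acetyl groups to carbon dioxide in the mitochondrial matrix and passes their electrons to the respiratory chain as NADH and reduced flavin. Long-chain fatty acids enter the cell through carriers such as CD36, are activated to acyl-CoA, cross the inner mitochondrial membrane as carnitine esters and are shortened by beta oxidation to acetyl-CoA. Both routes are rich in oxidative muscle fibres, where nuclear receptors of the PPAR and ERR families with PGC-1 coactivators are known to drive many of their genes.

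Library totals ran from 25496323 to 36709804 counts, and the 40 genes took between 0.396% and 0.411% of the counts of each library. Levels are given as CPM, the counts of a gene relative to its library size after TMM scaling. The myotube markers Acta1, Myh3, Des, Myog and Ryr1 were all expressed, with Acta1 between 4632 and 4990 CPM. Of 10 myotube markers Myog rose, Cav3 and Mb fell and 7 did not pass, and the part of these differences in the results below was not tested. Markers of undifferentiated or cycling myoblasts (Pax7, Myf5, Mki67, Top2a, Ccnb1 and Cdk1) were expressed too, with a summed level of 333 to 353 CPM in the DMSO libraries and 360 to 394 CPM in the Sardomozide libraries, and of these 6 genes Mki67 rose and 5 did not pass. Fewer or more cells of a kind and less or more RNA per cell cannot be told apart in such bulk libraries, and the part of this difference in the results below was not tested. Of 9 adipocyte markers 6 had no count in any library, Adipoq, Plin1 and Cidec among them, and their summed level stayed at or below 0.351 CPM in all 6 libraries. Among 6 endothelial markers the sum was 0.59 to 1.07 CPM with DMSO and 0.643 to 0.896 CPM with Sardomozide, and Emcn and Gpihbp1 had no count in any library. The 6 macrophage markers counted summed to 2.28 to 2.58 CPM with DMSO and 2.95 to 4.09 CPM with Sardomozide, with Adgre1 and Ptprc at 0 in all libraries and Itgam higher. The 6 fibroblast genes, led by Col1a1 and Col3a1, summed to 7563 to 9073 CPM with DMSO and 7897 to 8941 CPM with Sardomozide, and none of the 5 tested passed edgeR's test (1 had an unadjusted p under 0.05). Sardomozide replicate 2 stood apart in Ttn, the titin gene, with 4043 CPM against 1372 to 1745 CPM in the other 5 libraries, and DMSO replicate 1 stood apart on the second principal component (19.2, against −12.5 to 8.05 in the others).

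Of 39 members tested, 5 rose and 5 fell with Sardomozide, and 29 did not pass edgeR's quasi-likelihood test at a Benjamini-Hochberg adjusted p under 0.05. The share of members called was 25.6%, against 16.3% of all 13076 genes tested, 7.88% of them higher and 8.45% lower. By class it was 21.4% of 14 cycle enzymes, 50% of 4 uptake and activation genes and 66.7% of 3 tested shuttle genes. For beta oxidation it was 12.5% of 16 genes, and for uncoupling 50% of 2. The rises were those of Dlst, Ogdh and Idh3a of the cycle, the acyl-CoA synthetase gene Acsl1 and the carnitine acetyltransferase gene Crat. The falls were those of the fatty acid carrier gene Cd36, the carnitine palmitoyltransferase gene Cpt1a, the beta oxidation genes Hadh and Decr1, and Ucp2, a gene of the uncoupling protein family. Apart from Cd36, which fell by 55.8%, the changes were small: Dlst, the largest rise, was 16.2% higher, and Hadh fell by 22.4%. The median log2 fold change of the 39 members was −0.003 and that of all genes tested −0.0008, and the median size of the change without its sign was 0.078 for the members and 0.118 for all genes. The groups did not overlap for 16 of the 39 members (41%), against 33.5% of all genes tested.

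**Figure D1:**
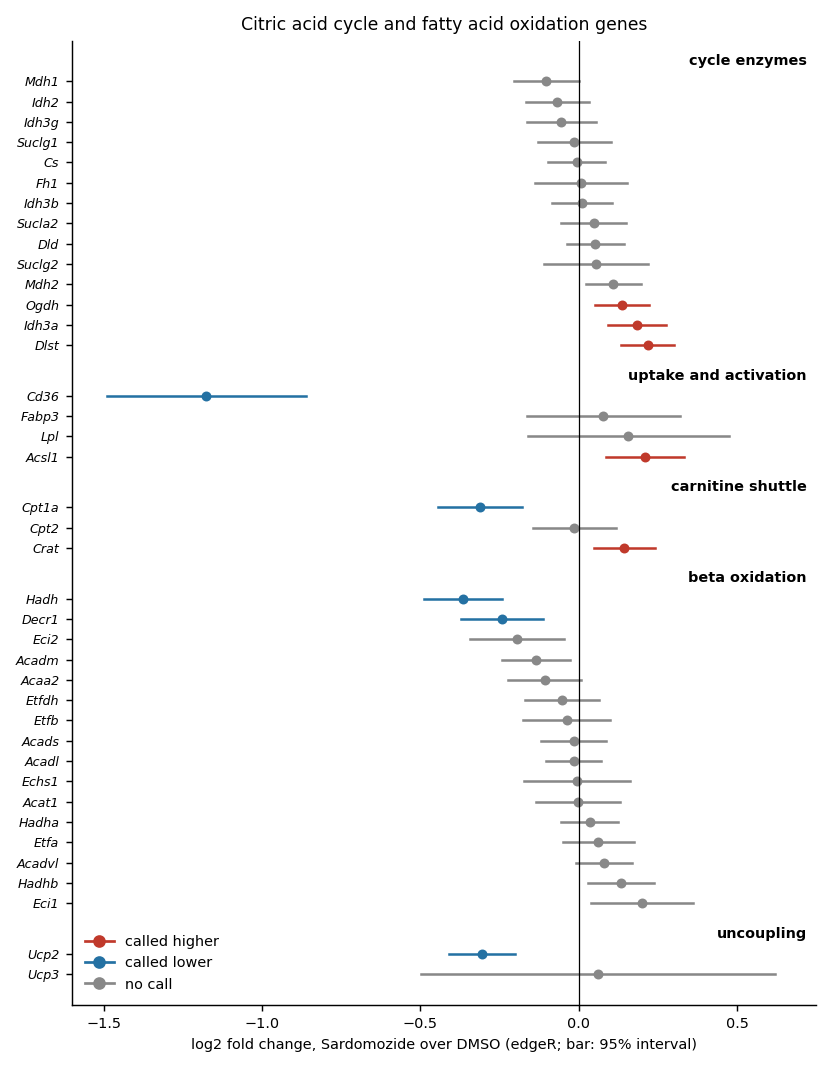
Log2 fold changes of the 39 tested members by class, Sardomozide over DMSO, with the 95% interval from edgeR as a bar and colour for the call. Cd36 lies at −1.18, far to the left of all other members, which lie between −0.37 for Hadh and 0.22 for Dlst.

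Calls for 7 members, Idh3a, Dlst, Cd36, Cpt1a, Hadh, Decr1 and Ucp2, held under all 15 alternative settings, which included leaving out each library in turn. The 250 bases before the start sites of those in the RefSeq promoter table are shown because these members carry the result. The table matched 33 of the 40 members, and it holds no entry for Idh3a and Decr1. Sequences run 5′ to 3′ on the strand of the gene, in build GRCm38.p6, and where a GENCODE exon begins before the RefSeq start site the sequence ends at that exon. Capitals mark letters found by search on both strands, namely AGGTCA (the half-site bound by nuclear receptors such as PPAR and ERR, read as TGACCT on the other strand), GGGCGG (the GC box, CCGCCC on the other strand), CCAAT and CAGCTG (an E-box of the kind myogenic factors bind).
Cd36, chr5:17835897-17836146, minus strand: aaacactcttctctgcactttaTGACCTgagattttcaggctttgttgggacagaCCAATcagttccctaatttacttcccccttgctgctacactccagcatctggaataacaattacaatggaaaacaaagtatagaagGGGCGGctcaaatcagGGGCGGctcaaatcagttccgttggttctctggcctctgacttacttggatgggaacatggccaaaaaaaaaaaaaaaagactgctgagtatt
Cpt1a, chr19:3323051-3323284, plus strand: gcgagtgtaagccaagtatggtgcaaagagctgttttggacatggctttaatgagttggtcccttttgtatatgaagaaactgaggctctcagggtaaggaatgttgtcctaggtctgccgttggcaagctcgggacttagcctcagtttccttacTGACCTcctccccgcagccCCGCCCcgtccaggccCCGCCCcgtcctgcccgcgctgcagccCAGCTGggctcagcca
Hadh, chr3:131272102-131272351, minus strand: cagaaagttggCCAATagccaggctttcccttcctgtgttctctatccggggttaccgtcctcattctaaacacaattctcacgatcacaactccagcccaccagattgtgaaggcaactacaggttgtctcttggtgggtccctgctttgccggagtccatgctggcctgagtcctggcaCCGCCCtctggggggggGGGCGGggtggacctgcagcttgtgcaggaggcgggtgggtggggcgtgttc
Ucp2, chr7:100493108-100493336, plus strand: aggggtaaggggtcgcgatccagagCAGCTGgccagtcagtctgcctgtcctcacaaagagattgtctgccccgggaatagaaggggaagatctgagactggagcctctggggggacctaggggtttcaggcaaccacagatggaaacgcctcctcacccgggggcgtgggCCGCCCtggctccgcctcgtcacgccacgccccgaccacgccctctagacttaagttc
Dlst, chr12:85110583-85110832, plus strand: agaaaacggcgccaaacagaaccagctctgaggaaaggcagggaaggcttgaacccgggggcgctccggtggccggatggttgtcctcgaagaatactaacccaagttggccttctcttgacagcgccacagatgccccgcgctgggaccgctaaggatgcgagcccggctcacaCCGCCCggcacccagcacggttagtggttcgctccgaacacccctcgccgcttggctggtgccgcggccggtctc
In the Cd36 window the half-site began 228 bases before the start site, CCAAT 195 bases before it, and a pair of GC boxes 109 and 93 bases before it. The Cpt1a window had the half-site at 94 bases, GC boxes at 75 and 59 bases and CAGCTG at 32 bases before the start site. Its whole window also held CCAAT at 19 bases, which the end of the shown sequence cuts, so it is not marked. GC boxes were also present in the windows of Hadh (69 and 52 bases), Ucp2 (79 bases) and Dlst (75 bases), and those 3 windows held no AGGTCA. The Cd36 window was 43.2% G and C with 3 CpG pairs, and the Dlst window 64.8% with 23. Over whole windows of 250 bases, AGGTCA stood in 8 of the 33 matched members (24.2%), in 12.8% of the 9928 tested genes with a window and in 14% of all windows in the table. GC boxes stood in 22 of 33 members (66.7%), in 64% of tested genes and in 32.7% of all windows. CCAAT was found in 48.5% of members, 40.5% of tested genes and 33.8% of all windows, and CAGCTG in 15.2%, 14.8% and 13%. The direct repeat of AGGTCA with 1 base between the copies and the TATA box TATAAA were in none of the 33, against 0.0302% and 7.98% of tested genes and 0.0335% and 12.4% of all windows. The cAMP response element TGACGTCA was in the windows of Mdh2 and Ogdh (6.06% of members, 3.1% of tested genes and 1.55% of all windows). The Cd36 and Cpt1a windows lie inside the GENCODE spans of their genes, which have transcripts that start further upstream. These are matches of letters and say nothing about binding.

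Among the cycle enzymes Dlst, Ogdh and Idh3a rose. Dlst and Ogdh encode parts of the 2-oxoglutarate dehydrogenase complex, which converts 2-oxoglutarate to succinyl-CoA and has 3 components. Dlst, its core succinyltransferase (chromosome 12, 85110833 to 85134845), had 252, 255 and 258 CPM in the DMSO libraries and 300.3, 289 and 299 CPM in the Sardomozide libraries. The lowest treated library lay above the highest control library, and the gene rose by 16.2% (log2 fold change 0.22 ± 0.040, standard error; edgeR adjusted p = 0.000892). Ogdh, the component that decarboxylates 2-oxoglutarate (chromosome 11, 6291633 to 6356642), had 289.8, 291 and 279.9 CPM with DMSO and 321, 309.6 and 315 CPM with Sardomozide. Its groups did not overlap either, and it rose by 9.97% (0.14 ± 0.041; edgeR adjusted p = 0.0249). Ogdh no longer passed when DMSO replicate 1, 2 or 3 was left out (adjusted p = 0.0658, 0.0551 and 0.132), nor when Sardomozide replicate 3 was (0.0598). Dld, the third component, is shared with pyruvate dehydrogenase, and its levels of 161, 157 and 159.9 CPM with DMSO and 171, 166 and 158 CPM with Sardomozide overlapped (0.05, 95% interval −0.04 to 0.14; adjusted p = 0.459). Whether Dld differs from its partners in response was not tested.

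Idh3a, the catalytic subunit of NAD-dependent isocitrate dehydrogenase (chromosome 9, 54586334 to 54604661), had 104, 107 and 109 CPM with DMSO and 119, 119 and 125 CPM with Sardomozide. It rose by 13.6% (0.18 ± 0.044; edgeR adjusted p = 0.0064), and every treated library exceeded every control library. Idh3b and Idh3g, the other subunit genes of the same enzyme, had log2 fold changes of 0.01 (95% interval −0.09 to 0.10) and −0.06 (−0.16 to 0.05), with overlapping groups. Mdh2, mitochondrial malate dehydrogenase, had 304, 315 and 309 CPM with DMSO and 335, 342 and 324 CPM with Sardomozide. Its groups did not overlap but it missed the threshold (0.11 ± 0.041; edgeR adjusted p = 0.0774). The remaining 8 enzymes, Cs, Idh2, Suclg1, Suclg2, Sucla2, Fh1, Mdh1 and Dld, had overlapping groups and log2 fold changes from −0.10 for Mdh1 to 0.05 for Suclg2. Citrate synthase, Cs, whose activity is often read as a measure of mitochondrial content, had an interval of −0.10 to 0.08 on the log2 scale. Of the 14 cycle enzymes 3 rose, 0 fell and 11 did not pass edgeR's test, and at an unadjusted p under 0.05 the counts were 4 and 0. DESeq2 and limma-voom also gave 3 rises and 0 falls. The median log2 fold change of the class was 0.03, against −0.0008 for all genes. Summed over the class, the level was 2204 to 2292 CPM with DMSO and 2326 to 2348 CPM with Sardomozide, without overlap. These totals include Dlst, Ogdh, Idh3a and Mdh2, so they do not show a rise of the class as a whole. Those 4 were the genes without overlap, 28.6% of the class against 33.5% of all genes tested.

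**Figure D2:**
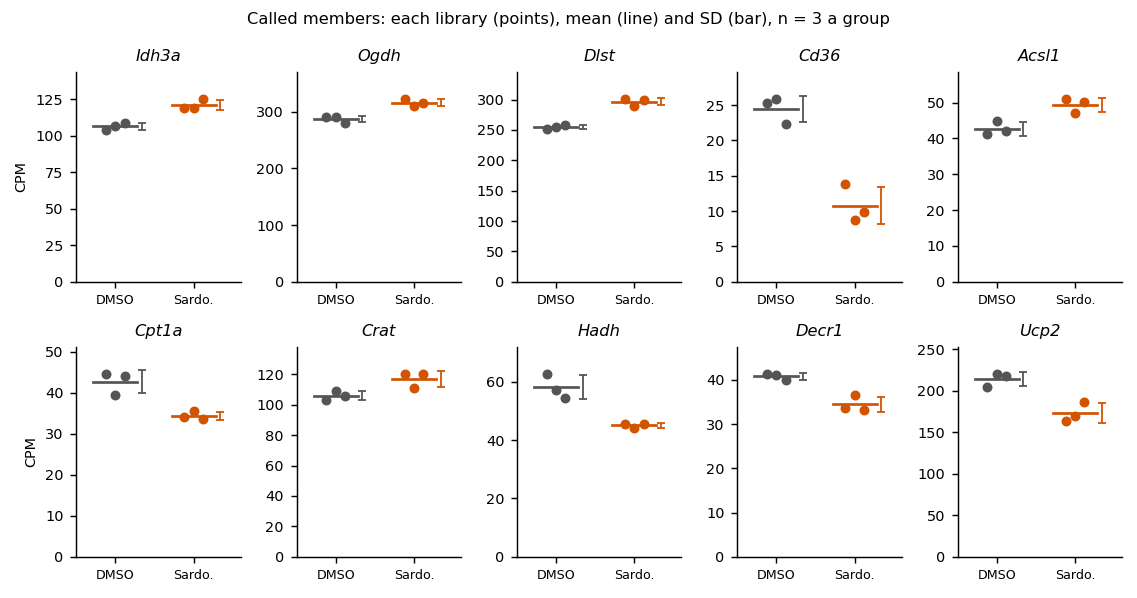
Levels in CPM of the 10 called members in each of the 6 libraries, with the mean as a line and the SD as a bar (n = 3 a group; Sardo. is Sardomozide). The axes start at 0, the groups do not overlap in any panel, and Cd36 shows the widest separation, from 24.5 to 10.8 CPM.

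Of the 4 uptake and activation genes Cd36 fell, Acsl1 rose and 2 did not pass. Cd36, the carrier of long-chain fatty acids at the cell surface (chromosome 5, 17781690 to 17888801), had 25.2, 25.8 and 22.3 CPM with DMSO and 13.8, 8.70 and 9.86 CPM with Sardomozide. The highest treated library, Sardomozide replicate 1, was well below the lowest control library. The mean fell from 24.5 ± 1.86 to 10.8 ± 2.67 CPM (n = 3, SD), a log2 fold change of −1.18 ± 0.14 (edgeR adjusted p = 0.000194), and over the alternatives the log2 fold change stayed between −1.40 and −1.04. The adipocyte markers beside it were at or near 0 in both groups, as given above. Acsl1, a synthetase that activates long-chain fatty acids to acyl-CoA (chromosome 8, 46471037 to 46536051), had 41.2, 45 and 42 CPM with DMSO and 50.9, 47.1 and 50.1 CPM with Sardomozide. It rose by 15.6% without overlap (0.21 ± 0.059; edgeR adjusted p = 0.0192). Acsl1 no longer passed when DMSO replicate 1 or 3 was left out (adjusted p = 0.0939 and 0.076) or when Sardomozide replicate 1 or 3 was (0.0604 and 0.0621).

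Fabp3, the fatty acid binding protein of heart and muscle, had 27.9, 31.8 and 29.5 CPM with DMSO and 37.2, 30.8 and 26.1 CPM with Sardomozide. The treated libraries were spread on both sides of the controls, and the 95% interval of the log2 fold change was −0.16 to 0.32 (edgeR adjusted p = 0.697). Fabp3 has a pseudogene, Fabp3-ps1, in GENCODE, so its counts may be divided. Its exon bases also overlap Zcchc17 (9.84%) and Gm10570 (9.72%) on the opposite strand. Lpl, the lipase that frees fatty acids from circulating triglycerides, had 15.3, 17.8 and 14.3 CPM with DMSO and 13.5, 18.6 and 20.8 CPM with Sardomozide, again with overlap (0.16, 95% interval −0.16 to 0.47; adjusted p = 0.524). Without Sardomozide replicate 1, Lpl passed as a rise (0.32, adjusted p = 0.0476). Summed over the class, the level was 108 to 120 CPM with DMSO and 105 to 115 CPM with Sardomozide.

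The carnitine shuttle carries acyl groups across the mitochondrial membranes, and the enzyme at its entry is carnitine palmitoyltransferase 1. Cpt1a, the liver isoform of that enzyme (chromosome 19, 3322334 to 3385733), had 44.5, 39.6 and 44.1 CPM with DMSO and 34.1, 35.4 and 33.6 CPM with Sardomozide. All treated libraries lay below all controls, and the gene fell by 19.4% (log2 fold change −0.31 ± 0.064; edgeR adjusted p = 0.00196). Cpt1b, the isoform of mature muscle (chromosome 15, 89416405 to 89425863), had only 3, 4 and 2 counts with DMSO and 1, 5 and 2 counts with Sardomozide and was not tested. A count of 0 allows up to 3 counts, so these values lie at about the limit of detection. GENCODE places a read-through gene, Gm44502 (89416405 to 89429696), over the locus on the same strand, sharing 94.8% of the exon bases of Cpt1b. The counted symbols include ChkbCpt1b, whose name joins Cpt1b to the neighbouring gene Chkb, and it had 0 counts in all 6 libraries, while Chkb itself had 7 counts in all. How reads shared between these genes were counted is not given in the sources used here, so the level of Cpt1b cannot be read from these counts and no fold is given.

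Cpt2, which returns the acyl group to CoA on the matrix side, had 35.4, 37.3 and 39.3 CPM with DMSO and 37.5, 37.4 and 36.1 CPM with Sardomozide. The groups overlapped and the 95% interval was −0.14 to 0.12 on the log2 scale (edgeR adjusted p = 0.91). Crat, which joins short acyl groups such as acetyl to carnitine (chromosome 2, 30400471 to 30415813), had 103, 109 and 106 CPM with DMSO and 119.9, 111 and 120.03 CPM with Sardomozide. It rose by 10.5% without overlap (0.14 ± 0.046; edgeR adjusted p = 0.0378). The call of Crat was lost with DESeq2 and limma-voom (adjusted p = 0.0544 and 0.0524), with DMSO replicate 1, 2 or 3 left out (0.157, 0.0538 and 0.106) and with Sardomozide replicate 1 or 3 left out (0.0941 and 0.129).

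Of the 16 beta oxidation genes 0 rose, 2 fell and 14 did not pass edgeR's test. That is a share called of 12.5%, below the 16.3% of all genes tested. At an unadjusted p under 0.05 the counts were 2 higher and 4 lower, and DESeq2 and limma-voom both gave 0 and 2. Hadh, the dehydrogenase that oxidises short and medium 3-hydroxyacyl-CoA (chromosome 3, 131233419 to 131272101), had 62.5, 57.2 and 54.5 CPM with DMSO and 45.6, 44 and 45.5 CPM with Sardomozide. The treated libraries lay close together and below every control, and the gene fell by 22.4% (log2 fold change −0.37 ± 0.059; edgeR adjusted p = 0.00021). Decr1, the dienoyl-CoA reductase needed for polyunsaturated fatty acids (chromosome 4, 15917240 to 15945507), had 41.3, 41.2 and 39.9 CPM with DMSO and 33.8, 36.5 and 33.2 CPM with Sardomozide. It fell by 15.4% without overlap (−0.24 ± 0.062; edgeR adjusted p = 0.0103).

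Eci2 and Eci1 encode isomerases that move a double bond so that unsaturated fatty acids can be oxidised. Eci2 had 35.2, 32.9 and 38.2 CPM with DMSO and 29.5, 32.8 and 30.5 CPM with Sardomozide. The groups touched without overlapping, and the gene missed the threshold (−0.20 ± 0.071; edgeR adjusted p = 0.0651). It passed as a fall with DMSO replicate 2 left out (adjusted p = 0.044), with Sardomozide replicate 2 left out (0.0411) and with no filter on low counts (0.049). Of the Eci2 exon bases 10.8% overlap the gene Gm16984 on the opposite strand. Eci1 lay on the other side of 0, with a log2 fold change of 0.20 and an interval of 0.04 to 0.36, and did not pass after adjustment (adjusted p = 0.0852). The trifunctional protein of long-chain beta oxidation has its subunits encoded by Hadha and Hadhb, whose RefSeq start sites lie 273 bases apart on opposite strands of chromosome 5. Hadhb had 69, 72.9 and 68.7 CPM with DMSO and 76.5, 79.5 and 75.2 CPM with Sardomozide, without overlap but short of the threshold (0.13 ± 0.050; edgeR adjusted p = 0.0716). Hadha had a log2 fold change of 0.03 with an interval of −0.05 to 0.12, and its groups overlapped.

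The acyl-CoA dehydrogenases, which take the first step for chains of different length, had log2 fold changes of 0.08 for Acadvl, −0.02 for Acadl, −0.13 for Acadm and −0.02 for Acads, and none passed (edgeR adjusted p = 0.221, 0.84, 0.0826 and 0.866). Acadvl shares 45% of its exon bases with Dvl2 on the opposite strand, so its counts are uncertain. The electron transfer flavoprotein genes Etfa, Etfb and Etfdh, which pass the electrons of these dehydrogenases to ubiquinone, and the hydratase gene Echs1 all had intervals that include 0. Etfb shares 69.1% of its exon bases with a read-through gene, Gm45233, on the same strand, so its level is uncertain. Acaa2 and Acat1, thiolase genes of the last step, had log2 fold changes of −0.11 and −0.003, and neither passed, although Acaa2 was called lower without Sardomozide replicate 2. The groups did not overlap for 7 of the 16 genes, in both directions (43.8%, against 33.5% of all genes tested). The median log2 fold change of the class was −0.02. Summed over the class, the level was 1239 to 1263 CPM with DMSO and 1226 to 1255 CPM with Sardomozide, so the totals overlapped.

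The uncoupling protein genes Ucp3 and Ucp2 are neighbours on chromosome 7, with start sites 20367 bases apart. Ucp2, a broadly expressed carrier of the inner membrane (100493337 to 100502020), had 204, 219.6 and 217 CPM with DMSO and 163, 169.8 and 186 CPM with Sardomozide. The groups were well apart, and the mean level of 214 ± 8.14 CPM fell by 19.1% to 173 ± 11.9 CPM (n = 3, SD), a log2 fold change of −0.31 ± 0.049 (edgeR adjusted p = 0.000225). Of its exon bases 7.65% overlap Dnajb13 on the opposite strand. Ucp3, the muscle member of the family, was near the bottom of the measured range with 2.56, 1.71 and 1.71 CPM in the DMSO libraries and 2.52, 1.52 and 2.15 CPM in the Sardomozide libraries. Its groups overlapped (edgeR adjusted p = 0.909). The wide interval of −0.50 to 0.62 on the log2 scale holds sizeable changes of either sign, so the direction and size of any change stay unknown.

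Scaled by the length of their merged exons, the members covered a wide range of levels in control myotubes. Mdh2, Cs, Acadl and Dlst stood highest in that order, at 213, 113, 99.5 and 92.2 CPM per kilobase with DMSO. Among the isocitrate dehydrogenase subunits Idh3g and Idh3b stood above Idh3a (85.2, 66.5 and 41.3 CPM per kilobase). For the shuttle the order was Crat, Cpt2 and Cpt1a, at 23.2, 15.7 and 9.9 CPM per kilobase. Cd36 ranked 36 of 40 with DMSO at 6.92 CPM per kilobase and stood at 3.05 CPM per kilobase with Sardomozide. Ucp2 stood at 53.6 and Ucp3 at 0.814 CPM per kilobase with DMSO. The order rests on one length per gene and takes no account of which transcript is used.

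**Figure D3:**
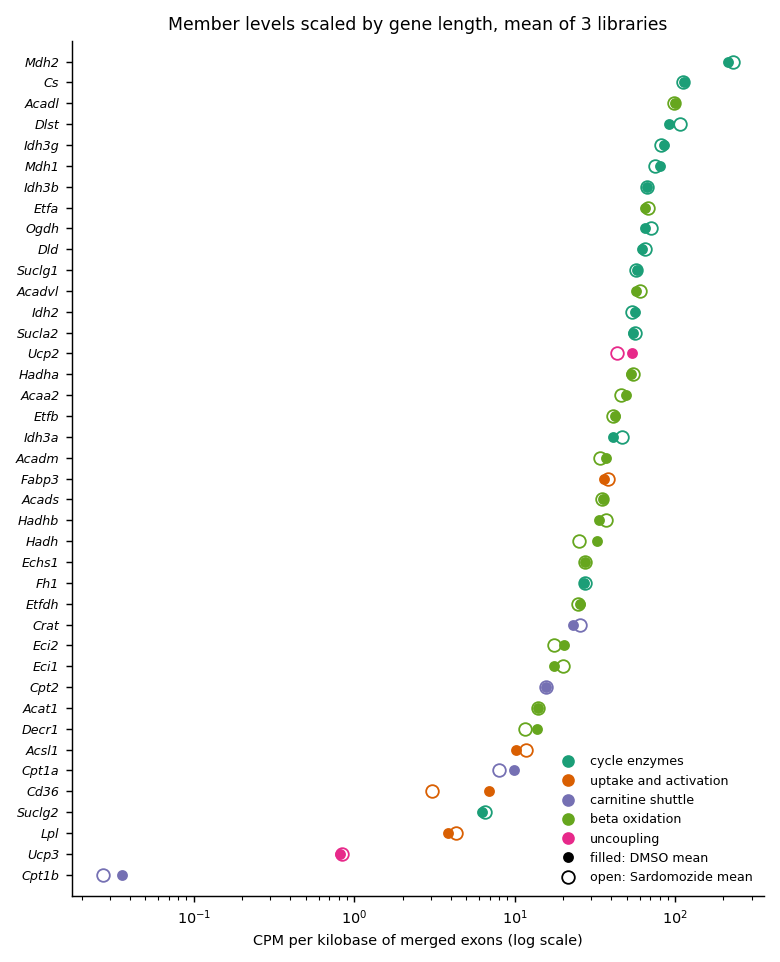
Mean level of the 40 members on a log axis, in CPM per kilobase of merged exons, with DMSO as filled and Sardomozide as open circles, coloured by class. Members are ordered by the DMSO mean, with Mdh2 highest at 213. Cpt1b, at about the limit of detection, is drawn lowest, but its level cannot be read from these counts. Open and filled circles nearly coincide except for Cd36 and the smaller shifts described.

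Other genes of the same pathways were followed in 10 lists, which hold 110 genes. Of the 103 tested, 8 rose, 14 fell and 81 did not pass, a share called of 21.4% against the 16.3% of all genes. Their median log2 fold change was −0.02. By list, the share called ran from 0% of 4 tested ketone body genes to 50% of 6 tested PPAR target genes. The 19 other cycle and anaplerotic genes held 2 rises and 3 falls, a share called of 26.3%. Pcx, pyruvate carboxylase, which refills the cycle, rose from 67.4 ± 2.63 to 80.6 ± 4.28 CPM (edgeR adjusted p = 0.00203). Idh1, the NADP-dependent cytosolic isocitrate dehydrogenase, fell from 105 ± 4.06 to 89.1 ± 0.808 CPM, and Slc25a1, the citrate carrier, from 43.6 ± 2.16 to 35.9 ± 2.01 CPM (edgeR adjusted p = 0.00103 and 0.00485).

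Lipid droplets store fatty acids inside the cell, and lipases release them. Of 10 tested lipid droplet and lipolysis genes 0 rose and 3 fell with edgeR, DESeq2 and limma-voom alike, and the same counts were seen at an unadjusted p under 0.05. The share called with edgeR was 30%, against 16.3% of all genes tested. Mgll, monoacylglycerol lipase, had 74.3, 78.9 and 74.5 CPM with DMSO and 53.4, 52.1 and 60.96 CPM with Sardomozide (log2 fold change −0.45 ± 0.059; edgeR adjusted p = 2.73e-05). G0s2, an inhibitor of the triglyceride lipase ATGL, fell by 21.6% (adjusted p = 0.000227), and Plin2, a coat protein of lipid droplets, by 12.1% (adjusted p = 0.0198). Plin2 did not pass with DMSO replicate 1 or 2 left out (adjusted p = 0.106 and 0.0663) or with Sardomozide replicate 3 left out (0.0848). The groups did not overlap for 5 of the 10 genes (50%, against 33.5% of all genes tested). Mgll, G0s2 and Plin2 were among them, and so were, with higher levels but short of the threshold, Abhd5 and Dgat2 (log2 fold changes 0.10 and 0.32; edgeR adjusted p = 0.337 and 0.172). The median log2 fold change of the list was 0.01, with 6 genes above 0 and 4 below.

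Among 10 other uptake and activation genes 2 rose and 1 fell, a share called of 30% against 16.3% of all genes tested. Slc27a4, a fatty acid transport protein with synthetase activity, rose by 22.3%, from 62.7 ± 1.18 to 76.6 ± 1.61 CPM (edgeR adjusted p = 0.000353). Acsl3 rose by 10.3% and Acsl6 fell by 13.9% (adjusted p = 0.0317 and 0.0133), both acyl-CoA synthetases like Acsl1. Acsl3 did not pass with DMSO replicate 1 or 2 left out (adjusted p = 0.12 and 0.155) or with Sardomozide replicate 1 or 3 left out (0.0869 and 0.0503). Acsl6 did not pass with DMSO replicate 3 left out (0.0627) or with Sardomozide replicate 2 or 3 left out (0.0517 and 0.0613). Of 7 carnitine supply and malonyl-CoA control genes 1 rose and 1 fell, a share called of 28.6%. Slc25a20, the carrier that exchanges acylcarnitine for carnitine, rose by 18.7%, and Aldh9a1, of carnitine synthesis, fell by 18.6% (edgeR adjusted p = 0.0314 and 0.041). Slc25a20 did not pass with DMSO replicate 1, 2 or 3 left out (adjusted p = 0.118, 0.0883 and 0.0525) or with Sardomozide replicate 1 left out (0.112). Aldh9a1 passed neither with DESeq2 (0.0549) nor with limma-voom (0.0638), nor with DMSO replicate 1 or 3 left out (0.235 and 0.108), nor with Sardomozide replicate 1, 2 or 3 left out (0.121, 0.0535 and 0.0679).

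Of 13 other mitochondrial acyl-CoA genes 0 rose and 2 fell, and DESeq2 and limma-voom gave the same counts (at an unadjusted p under 0.05, 1 and 2). The share called with edgeR was 15.4%, just below the 16.3% of all genes tested. The 2 falls were those of Acad8, a dehydrogenase of valine breakdown, and Acot9, an acyl-CoA thioesterase (log2 fold changes −0.36 and −0.19; edgeR adjusted p = 0.0137 and 0.0114). Acad8 did not pass with DMSO replicate 1 left out (adjusted p = 0.0862) or with Sardomozide replicate 1 left out (0.0632), nor Acot9 with DMSO replicate 2 left out (0.0684). In the list of 15 peroxisomal genes 0 rose and 1 fell with all 3 tools (1 and 3 at an unadjusted p under 0.05), a share called of 6.67%. That fall was Crot, which moves peroxisomal acyl groups to carnitine, from 22.8 ± 0.293 to 18 ± 1.3 CPM (edgeR adjusted p = 0.00672). Of 4 tested ketone body genes 0 rose and 0 fell with all 3 tools (0 and 1 at an unadjusted p under 0.05).

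**Figure D4:**
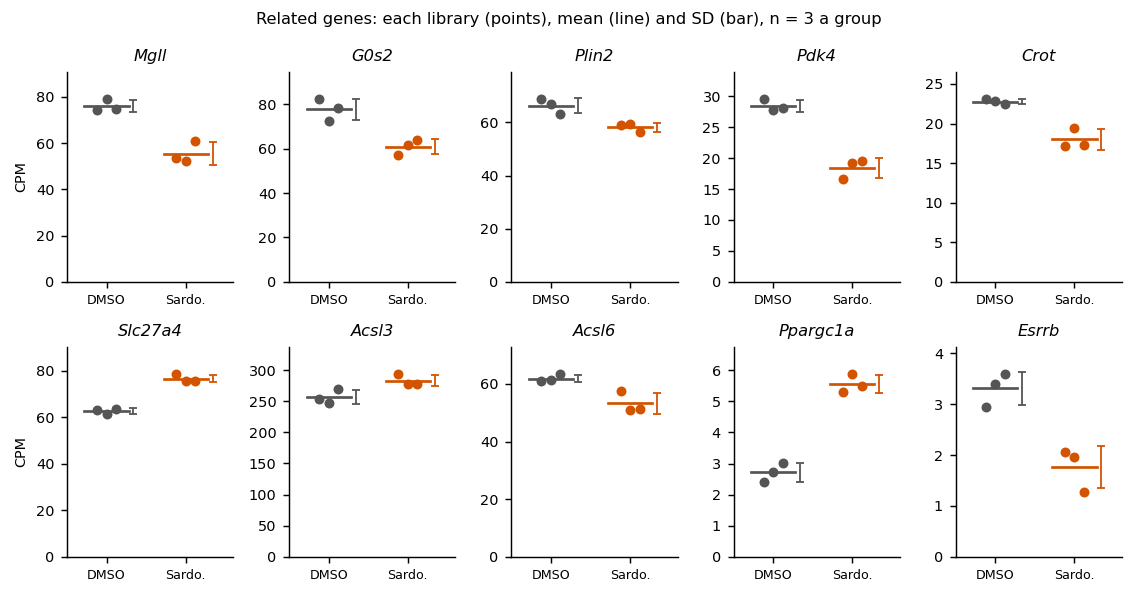
Levels in CPM of 10 related genes in each of the 6 libraries, with the mean as a line and the SD as a bar (n = 3 a group; Sardo. is Sardomozide). Mgll, G0s2, Plin2, Pdk4, Crot, Acsl6 and Esrrb were lower and Slc27a4, Acsl3 and Ppargc1a higher with Sardomozide. Only called genes without overlap between the groups are drawn, so the panels do not show the lists as a whole.

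Receptors and coactivators known to act on these genes were followed as a list of 13 tested genes. Of these 2 rose, 1 fell and 10 did not pass, a share called of 23.1% against 16.3% of all genes tested. Ppargc1a, the gene of the coactivator PGC-1 alpha, was low in the controls, with 2.40, 2.74 and 3.02 CPM, and reached 5.29, 5.87 and 5.51 CPM with Sardomozide. The groups were far apart, and the log2 fold change was 1.03 ± 0.17 (edgeR adjusted p = 0.000227). Ppargc1b rose from 25.1 ± 2.16 to 29.7 ± 2.57 CPM with overlapping groups (adjusted p = 0.0455), and lost its call with DESeq2 and limma-voom (0.0674 and 0.064), without robust estimation (0.053), with DMSO replicate 1 or 2 left out (0.177 and 0.159) and with Sardomozide replicate 2 or 3 left out (0.188 and 0.0886). Esrrb, an estrogen-related receptor gene, fell from 3.31 ± 0.327 to 1.76 ± 0.422 CPM (edgeR adjusted p = 0.00953). The PPAR genes themselves did not pass, with log2 fold changes of 0.23 for Ppara, −0.07 for Ppard and 0.28 for Pparg, and Ppard was the most abundant of them (52.7 ± 1.9 CPM with DMSO). Also short of the threshold were Rxra (−0.14, adjusted p = 0.0581, and 0.0351 without DMSO replicate 2), Rxrb (−0.01), Esrra (−0.08), Esrrg (−0.03), Pprc1 (0.03), Lpin1 (0.07) and Klf15 (−1.14, adjusted p = 0.12, at under 1 CPM in all 6 libraries).

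Of 6 tested PPAR target genes outside the members 1 rose and 2 fell, with a median log2 fold change of −0.15. The share called was 50%, against 16.3% of all genes tested. Pdk4, the kinase that switches off pyruvate dehydrogenase when fat is burned, had 29.5, 27.8 and 28.1 CPM with DMSO and 16.6, 19.3 and 19.5 CPM with Sardomozide. It fell by 35.2% without overlap (−0.63 ± 0.081; edgeR adjusted p = 2.28e-05). Plin2 fell and Slc25a20 rose, as given above. Among 9 genes of the energy sensor AMPK 1 rose and 1 fell, a share called of 22.2%. Prkaa2, the catalytic subunit common in muscle, rose from 34.6 ± 1.19 to 45.4 ± 2.29 CPM (edgeR adjusted p = 0.000165). Prkag2, a regulatory subunit, fell from 7.7 ± 1 to 5.72 ± 0.157 CPM (adjusted p = 0.0353), a call lost with DESeq2 and limma-voom (0.0549 and 0.0514), with DMSO replicate 1 or 3 left out (0.195 and 0.0513) and with Sardomozide replicate 1, 2 or 3 left out (0.0779, 0.0583 and 0.0852).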

How the data were processed

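RNA of 6 libraries of C2C12 myotubes was prepared with column kits and read as pairs of 150 bases on an Illumina NovaSeq, per the labels' protocols. The authors deposited raw read counts per gene symbol, 1 table for each library. The tools and builds listed in the submitters' processing notes are STAR, StringTie, DESeq2, GRCm38 and mm10. Not given in the sources used here are their versions, the annotation, the strand setting and the treatment of reads shared by genes.

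Genes were filtered with filterByExpr (10 counts scaled to library size, 15 in total) and scaled by TMM. The groups were compared with edgeR 4.0.16 in R 4.3.3 (robust quasi-likelihood fit, two-sided, treatment as the single term), with Benjamini-Hochberg adjustment across the 13076 genes tested. Each standard error was obtained by dividing the log2 fold change by the root of its F value. The alternatives were DESeq2 1.42.0, limma-voom (limma 3.58.1), 3 other scalings, no filter and a stricter one, a replicate block, no robust estimation, and each library left out. The script was tested on simulated data. Of 100 genes changed 1.5-fold it recovered 68%, and of 100 changed 2-fold 86%, and it called 13 of 12837 unchanged genes. Changes below 1.5-fold, which all tested members but Cd36 had, were not simulated. A member that did not pass may thus still have changed. Totals of 25496323 to 36709804 counts make 3 counts, the limit that a count of 0 allows, equal to 0.0823 to 0.118 CPM (counting error only). Replicates differed beyond sampling noise (chi-square per degree of freedom 5.45 to 16.1).

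The members and lists were chosen with earlier results of these data known. Values in every library are given for called members and up to 4 members a class with the smallest adjusted p. Related genes are named for up to 3 called genes per list, and for tested receptors and coactivators. Dld and the remaining members are named to account for their class, some after their values were seen. Abhd5, Dgat2 and Angptl4 are named because their groups did not overlap, after their values were seen. Tmlhe of the carnitine list had no matching symbol. Positions and exon lengths come from GENCODE M21 (GRCm38), promoters from RefSeq (GRCm38.p6).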

Additional observations from a re-analysis of the deposited data

How the results depend on the processing

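The number of genes called lay between 1820 and 2389 in the 9 alternatives that kept all libraries, against 2135, and between 1326 and 1952 with a library left out, lowest without DMSO replicate 1. Members called lower numbered 5 to 7 over all 15 alternatives, and Cd36, Cpt1a, Hadh, Decr1 and Ucp2 were among them in each. Idh3a and Dlst rose in each as well. Members called higher numbered 5, but 4 with DESeq2 and with limma-voom, 3 with the replicate block, and 2 to 5 with a library left out. In the uptake class 0 to 1 rose, in the carnitine class 0 to 1 rose and in beta oxidation 2 to 4 fell with a library left out. Crat, the only shuttle gene that rose, gave 0 rises with DESeq2, limma-voom and the replicate block. Same-numbered libraries did not deviate together (r = 0.022, −0.023 and −0.018 across genes), which cannot show whether they were handled as pairs. With the replicate block 6 named genes did not pass, Ogdh, Crat, Acsl3, Slc25a20, Aldh9a1 and Prkag2 (edgeR adjusted p = 0.0564, 0.0723, 0.0591, 0.0558, 0.0652 and 0.0522), and it changed no other named call. Fits with a library left out have fewer samples, and the cause of each lost call was not tested. No result reversed. Scaling by RLE, upper quartile or library totals left the members called unchanged. The interval of Ucp3 was too wide to describe a change, and the level of Cpt1b could not be read.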
